A study of Mus musculus with 10 samples.

Results

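The odorant receptor (OR) genes Olfr1507, Olfr1508, Olfr1509, Olfr1510, Olfr1511 and Olfr1512 form a cluster on mouse chromosome 14 next to the H enhancer. They were chosen by name, as the rows Olfr1507 to Olfr1512 of the count table, and all 6 were present among 24421 rows and 1125 OR genes (symbols that start with Olfr). RNA-seq of the main olfactory epithelium (MOE) was made from mice labelled C57BL/6 at postnatal day 14 in which TAAR enhancer 1 and TAAR enhancer 2, both in the Taar gene cluster on another chromosome, were left intact (WT, 3 libraries), deleted on 1 allele (het, 3 libraries) or deleted on both alleles (homo, 4 libraries). The double knockout was made with CRISPR-Cas9 and kept as 1 mouse line, and no group carried a change at the H enhancer. The study made its deletions in C57BL/6J eggs and describes its mouse lines as a whole as of mixed C57BL/6J and 129 background. The cluster therefore served as a comparison locus, and the question was whether its receptors differed when the enhancers of another olfactory receptor family were removed.

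A typical olfactory sensory neuron (OSN) expresses 1 olfactory receptor gene, taken from the OR family or from the smaller family of trace amine-associated receptors (TAARs). Some OSNs use receptors of other types. The H enhancer was the first OR enhancer described. It lies upstream of Olfr1507, also known as MOR28, and its removal in mice silences the nearest genes of this cluster on the same chromosome while distant ORs are still chosen. OR enhancers of this kind bind Lhx2 and Ebf factors and, in OSNs, gather with enhancers from other chromosomes at the chosen receptor gene.

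In the mm10 annotation the cluster spanned 124 kb, at chr14:52371332-52495749, and Olfr1507 was its outermost gene on the side of the H enhancer. Every member was annotated as protein coding. Olfr1509 lies on the plus strand and the other 5 on the minus strand. Measured between annotated starts, Olfr1508 was 28.3 kb from Olfr1507, Olfr1509 52.8 kb, Olfr1510 81.4 kb, Olfr1511 98.4 kb and Olfr1512 116.6 kb. The next OR gene beyond Olfr1512, Olfr1513, was 139.3 kb away and was not a member. Coding regions were of similar length, from 927 bases (Olfr1509) to 957 bases (Olfr1510 and Olfr1511). The summed exons differed more, from 1468 bases (Olfr1511) to 5791 bases (Olfr1508).

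The members fell into close pairs by sequence. A stretch of 60 coding bases near the 3′ end of each coding region, the one most alike in the 6 genes, shows this. It is printed from the coding strand of the GENCODE transcripts on mm10, and capitals mark bases that differ from Olfr1507.
Olfr1507, chr14:52490057-52490116, minus strand: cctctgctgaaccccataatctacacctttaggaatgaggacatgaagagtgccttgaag
Olfr1508, chr14:52463102-52463161, minus strand: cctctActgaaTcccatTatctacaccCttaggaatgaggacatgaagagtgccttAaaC
Olfr1509, chr14:52451252-52451311, plus strand: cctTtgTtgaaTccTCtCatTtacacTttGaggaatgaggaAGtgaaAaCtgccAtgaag
Olfr1510, chr14:52409956-52410015, minus strand: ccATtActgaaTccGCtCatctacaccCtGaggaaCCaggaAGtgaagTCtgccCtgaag
Olfr1511, chr14:52389857-52389916, minus strand: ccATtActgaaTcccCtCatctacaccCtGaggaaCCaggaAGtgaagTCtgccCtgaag
Olfr1512, chr14:52372149-52372208, minus strand: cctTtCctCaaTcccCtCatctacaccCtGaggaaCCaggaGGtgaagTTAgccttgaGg

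Within this stretch Olfr1508 differed from Olfr1507 at 6 bases, and Olfr1509, Olfr1510, Olfr1511 and Olfr1512 at 14 to 16. Olfr1510 and Olfr1511 differed from each other at 1 base. Over the whole coding regions, Olfr1510 and Olfr1511 were 97.3% identical with a shared run of 274 bases, and Olfr1507 and Olfr1508 were 92.1% identical with a shared run of 143 bases. Olfr1512 was 72.6% and 72.9% identical to Olfr1510 and Olfr1511. Every other pair was between 55.5% and 63.8% identical. The annotated transcripts were then cut into all windows of 50 bases. For Olfr1510, 25.3% of windows also occurred in Olfr1511, and for Olfr1511, 34.5% occurred in Olfr1510. The share found in another gene of the cluster or in Olfr1513 was 5.65% for Olfr1507, 2.9% for Olfr1508, 15.7% for Olfr1512 (all in Olfr1513) and 0% for Olfr1509. How the authors counted reads with several alignments was not stated, so the counts of Olfr1510 and Olfr1511, and to a lesser degree those of Olfr1507, Olfr1508 and Olfr1512, are uncertain as single genes, and pair sums are given beside them.

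Total counts ranged from 21423861 to 27712948 per library. The summed counts of the 14 olfactory Taar genes, which check the labels, were 850 to 915 in WT, 738 to 862 in het and 2 to 5 in homo libraries, in keeping with the labelled genotypes. Counts of 4 Y chromosome genes were at most 3 in 6 libraries and 5252 or more in the other 4 (homo-2, homo-3, WT-1 and het-1), so every genotype held males and females. The labels give no sequencing batch. Mature OSN markers were present in all libraries (8 genes, 7804 to 9510 CPM in sum, where CPM are counts scaled to the library total), as were supporting cell markers (4 genes, 6064 to 7151 CPM). The study calls its genotypes littermates, and the labels do not say which libraries share a litter. Same-numbered WT and het libraries deviated together from their group means (correlations of 0.35 to 0.44), and the main fit did not use this pairing. The p-values measure the spread between these samples.

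Olfr1507 stood far above the rest of the cluster. Its counts were 1221 to 2145 per library. Per kb of exon it ranked between 1 and 3 of 1113 OR genes with an annotated length in every library. Olfr1507 alone held 67.3% ± 3.63 (SD, n = 10) of the cluster's counts and 1.25% to 2.18% of all OR counts. By mean CPM per kb of exon, Olfr1511 ranked 47, Olfr1509 51, Olfr1510 190, Olfr1508 224 and Olfr1512 435 of the same 1113 genes. The cluster thus held receptors from the top of the family to nearer its middle.

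Levels between genes were compared per length. Per kb of exon, Olfr1507 was at 25.5 ± 3.69 CPM per kb (SD, n = 10), and its lowest library (18.3) was above the highest library of every other member. Olfr1511 (4.37 ± 1.00) and Olfr1509 (4.23 ± 0.40) followed, with ranges that overlapped. Olfr1510 (2.18 ± 0.29) and Olfr1508 (1.95 ± 0.45) were lower, and their ranges overlapped as well. Olfr1512 was lowest, at 1.12 ± 0.22 CPM per kb, and was below Olfr1508 in 10 of 10 libraries although the ranges overlapped.

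The order below Olfr1507 depended on which length was used. Per kb of coding sequence, Olfr1508 moved from 5 to 2 in the order with 12.1 ± 2.77 CPM per kb (SD, n = 10), beside Olfr1509 at 11.7 ± 1.11. Olfr1508 was above Olfr1509 in 4 of 10 libraries on this scale. Olfr1511 (6.71 ± 1.54) was then above Olfr1510 (4.51 ± 0.59) in 10 of 10 libraries, and Olfr1512 was again lowest at 2.48 ± 0.50. The annotation the authors counted on was not stated, and the long exons annotated for Olfr1508 set its place. On both scales Olfr1507 was highest and Olfr1512, the farthest from it, lowest. Per kb of coding sequence, the order of means followed distance from Olfr1507, except that Olfr1511 stood above the nearer Olfr1510. Per kb of exon it did not, with Olfr1511 at 2 and Olfr1508 at 5 in the order. A relation of level to distance was not tested.

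**Figure D1:**
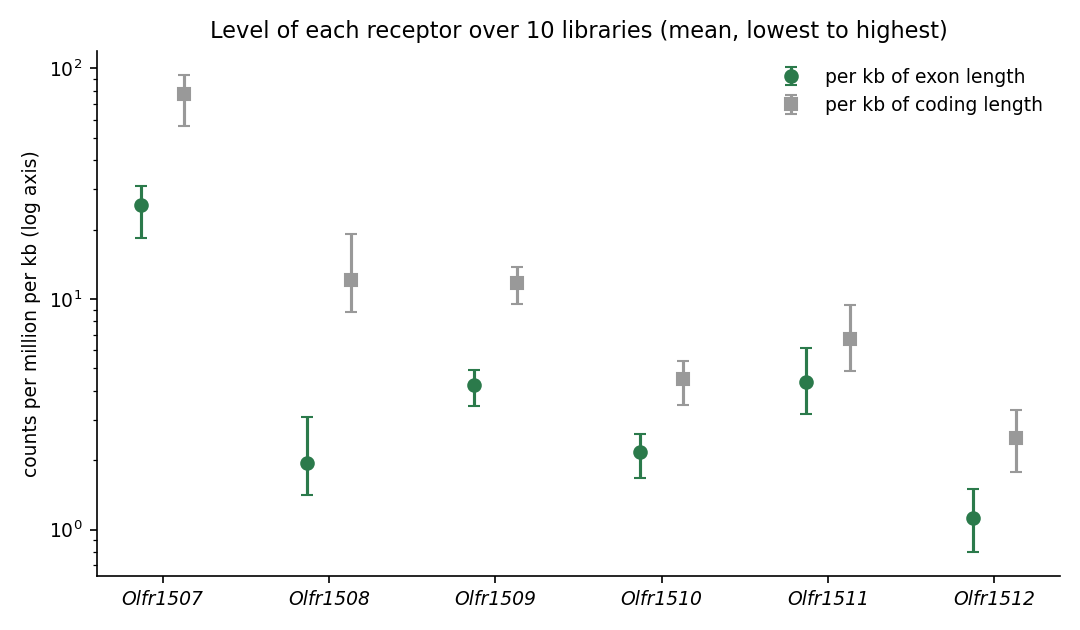
Level of each receptor in CPM per kb on a log axis, per kb of exon (circles) and per kb of coding sequence (squares). Points are means over 10 libraries and bars run from the lowest to the highest library. Olfr1507 is separate from the other 5 on both scales, while Olfr1508 changes place with the length used.

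Olfr1507 had overlapping levels in the 3 genotypes. The WT libraries held 80.1, 68.7 and 52.8 CPM, the het libraries 77.6, 68.4 and 70.2 CPM, and the homo libraries 85.5, 88.5, 77.0 and 64.3 CPM. The lowest value was WT-3 and the highest homo-2, and the lowest homo library was below 2 of 3 WT libraries. Means were 67.2 ± 13.7 (SD, n = 3) in WT, 72.1 ± 4.89 (n = 3) in het and 78.8 ± 10.8 (n = 4) in homo. With edgeR's quasi-likelihood test, the log2 fold change of homo against WT was 0.24 ± 0.14 (SE; 95% interval -0.06 to 0.53; adjusted p = 1.00 over 17197 genes). The interval runs from 96.0% to 144% of the WT level. With 1 library left out at a time the log2 fold change ran from 0.083 ± 0.13 (without WT-3) to 0.38 ± 0.14 (without WT-1), and it was 0.33 ± 0.13 without homo-4, each with an adjusted p of 1.00.

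Olfr1508, the closest relative of Olfr1507, gave the largest fitted difference of the 6. Its WT libraries were at 9.56, 10.9 and 8.17 CPM, the het libraries at 11.3, 11.1 and 12.8 CPM and the homo libraries at 10.7, 17.9, 10.5 and 10.3 CPM. All het libraries were above all WT libraries, whereas homo and WT overlapped and 1 homo library, homo-2, was far above the other 3. The log2 fold change by edgeR was 0.37 ± 0.19 (95% interval -0.03 to 0.78; adjusted p = 1.00) for homo against WT and 0.29 ± 0.20 (95% interval -0.14 to 0.72; adjusted p = 1.00) for het against WT. With 1 library left out at a time the difference between homo and WT ran from 0.13 ± 0.15 (without homo-2) to 0.48 ± 0.22 (without WT-2) on the log2 scale, each with an adjusted p of 1.00. As a sum, Olfr1507 and Olfr1508 reached 76.8 ± 14.6 CPM in WT (SD, n = 3), 83.8 ± 4.77 in het (n = 3) and 91.2 ± 13.5 in homo (n = 4), and the homo range of 74.7 to 106 overlapped the WT range of 61.0 to 89.7.

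Olfr1509, the only member on the plus strand and the only one with no shared window, varied least. Its libraries gave 8.82, 11.0 and 11.2 CPM in WT, 10.05, 11.4 and 10.4 CPM in het and 12.7, 10.6, 11.5 and 11.3 CPM in homo. WT-1 was lowest and homo-1 highest, and the groups overlapped. The log2 fold change of homo against WT by edgeR was 0.16 ± 0.13 (95% interval -0.12 to 0.44; adjusted p = 1.00).

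For Olfr1510 and Olfr1511, the near-identical pair, genotype means differed by less than the SD over all 10 libraries (0.57 and 1.47 CPM). Within WT alone the SD of Olfr1510 was smaller, at 0.19 CPM (n = 3). Olfr1510 was at 4.45, 4.07 and 4.32 CPM in WT, 3.90, 4.92 and 3.33 CPM in het and 4.43, 3.76, 5.17 and 4.84 CPM in homo. The WT values lay within the range of the other genotypes. Olfr1511 was at 5.04, 4.65 and 7.82 CPM in WT, 5.83, 9.04 and 6.22 CPM in het and 5.55, 4.997, 7.32 and 7.69 CPM in homo. Here WT-3 and het-2 were high and each genotype covered much of the same range. Homo against WT, the edgeR log2 fold changes were 0.09 ± 0.18 for Olfr1510 and 0.14 ± 0.22 for Olfr1511 (adjusted p = 1.00 for both). The sum of both genes was 10.1 ± 1.80 CPM in WT (SD, n = 3), 11.1 ± 2.49 in het (n = 3) and 10.9 ± 1.88 in homo (n = 4).

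Olfr1512, the member farthest from Olfr1507, was the lowest. It was at 2.54, 2.03 and 2.46 CPM in WT, 2.37, 3.11 and 1.67 CPM in het and 2.01, 1.99, 3.05 and 2.17 CPM in homo, from 41 to 74 counts per library. The het libraries held both its lowest and its highest value. The edgeR log2 fold change of homo against WT was -0.02 ± 0.26 (95% interval -0.57 to 0.52; adjusted p = 1.00). Its sum with the adjoining Olfr1513 was 4.12 ± 0.30 CPM in WT (SD, n = 3), 4.98 ± 1.59 in het (n = 3) and 4.29 ± 0.60 in homo (n = 4).

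**Figure D2:**
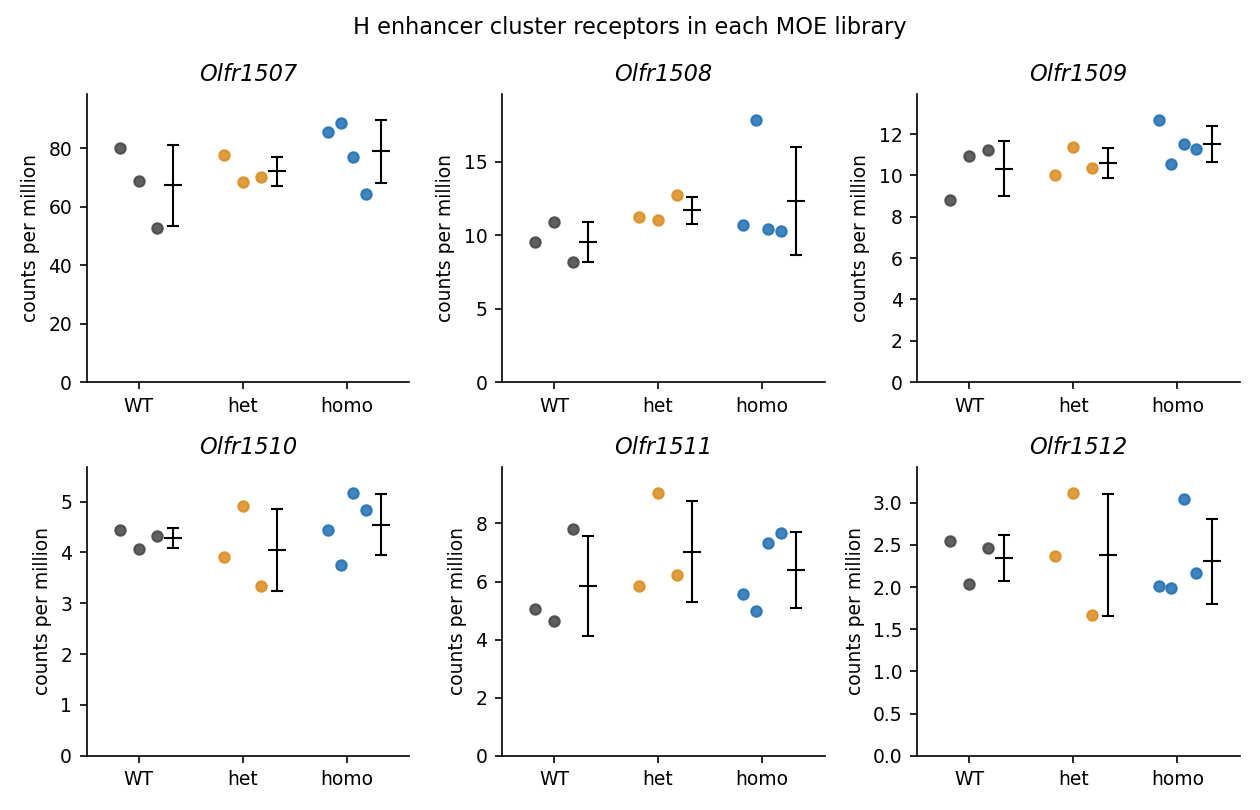
CPM of each receptor in every library by genotype, with axes from 0. Points are libraries, and the dash and bar beside them are the mean and SD (n = 3 WT, 3 het and 4 homo). Homo and WT overlap for all 6 receptors, and homo-2 (17.9 CPM) stands above the other homo libraries for Olfr1508.

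Across the cluster, none of the 6 receptors passed the test between genotypes. By edgeR, 0 of 6 were called at an adjusted p under 0.05 in homo against WT (background 0.0698%, 12 of 17197 genes tested), in het against WT (background 0%) and in homo against het (background 0.0756%), and 0 of 6 in the test across the 3 genotypes (background 0.0698%). All 6 passed the filter on low counts. At an unadjusted p under 0.05, 0 of 6 members passed in each comparison, against 414, 330 and 427 of all genes in the 3 contrasts and 340 in the test across genotypes. For homo against WT this count of members was 2 without homo-4, 1 without WT-1, WT-2 or homo-3, and 2 (Olfr1507 and Olfr1508) with a block on the replicate number. In the same order of settings, 396 of 17113, 470 of 17396, 522 of 17379, 685 of 17157 and 878 of 17197 of all genes passed, so the block raised the count over all genes as well. Homo-4 is the only library with its number, so the block leaves it out of the genotype contrasts. The block and the fit without homo-4 are therefore not independent settings. DESeq2 called 0 of 6 as well, with 13, 0, 16 and 17 of all genes called. Members whose CPM did not overlap between groups numbered 0 of 6 for homo against WT (background 3.55%), 1 of 6 for het against WT, which was Olfr1508 (background 5.22%), and 0 of 6 for homo against het (background 3.93%). A single receptor of 6 is too few to set against such a share.

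The intervals set what could have been missed. For homo against WT, log2 fold changes of the 6 ran from -0.02 to 0.37 with a median of 0.15, beside a median of 0.00 over all genes tested and -0.02 over 1043 OR genes tested. The lowest bound of any 95% interval was -0.57 and the highest 0.78, both on the log2 scale. For het against WT the 6 ran from -0.08 to 0.29 (median 0.07), beside a median of 0.16 over the OR genes tested, 73.7% of which were above 0. For homo against het they ran from -0.13 to 0.17 (median 0.10), beside a median of -0.17 over the OR genes tested. Both contrasts share the het libraries, and het-2 held the most OR counts of all (5454 CPM, against 3883 to 4553 in the other 9). In whole tissue, fewer neurons that express a receptor and less RNA in each cannot be told apart. The study also counted cells with Olfr1507 by in situ hybridization, which was not analysed here.

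**Figure D3:**
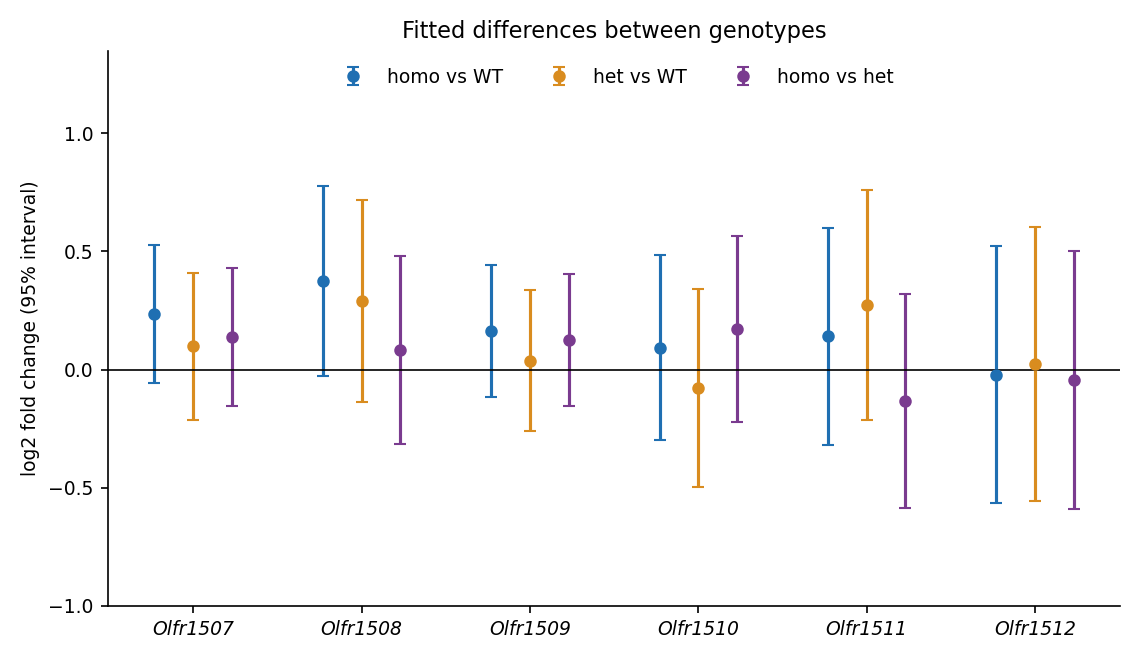
Fitted log2 fold changes of the 6 receptors for the 3 contrasts, with 95% intervals from edgeR. Every interval includes 0, and the widest belong to Olfr1512, the receptor with the fewest counts.

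Taken as 1 locus, the cluster held 110.6, 101.3 and 86.8 CPM in WT, 111.0, 107.9 and 104.5 CPM in het and 120.8, 127.7, 114.5 and 100.6 CPM in homo libraries. The 3 genotypes overlapped, and homo-4 was below WT-1 and WT-2. Group means were 99.6 ± 12.0 (SD, n = 3), 108 ± 3.24 (n = 3) and 116 ± 11.5 (n = 4), so that homo was at 116% and het at 108% of WT. As a share of all OR counts, the cluster made up 2.09% to 2.85% in WT, 1.98% to 2.62% in het and 2.47% to 3.15% in homo libraries. The 5 members other than Olfr1507 made up 0.783%, 0.719% and 0.819% of OR counts in WT, 0.790%, 0.725% and 0.787% in het and 0.859%, 0.965%, 0.824% and 0.890% in homo libraries. On this share all 4 homo libraries were above all WT and het libraries, by 0.824% against 0.819% at the closest, while WT and het overlapped. This sum was 1 of several computed. Among single genes tested, the CPM of 3.55% did not overlap between homo and WT in either direction, and that of 3.93% between homo and het. No such share was computed for sums of genes, for shares of OR counts or for both comparisons at once. These totals are sums over chosen genes and were not tested. The Taar total moved over another range, from 35.4 ± 1.29 CPM in WT (SD, n = 3) and 33.2 ± 2.78 in het (n = 3) to 0.155 ± 0.057 in homo (n = 4).

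**Figure D4:**
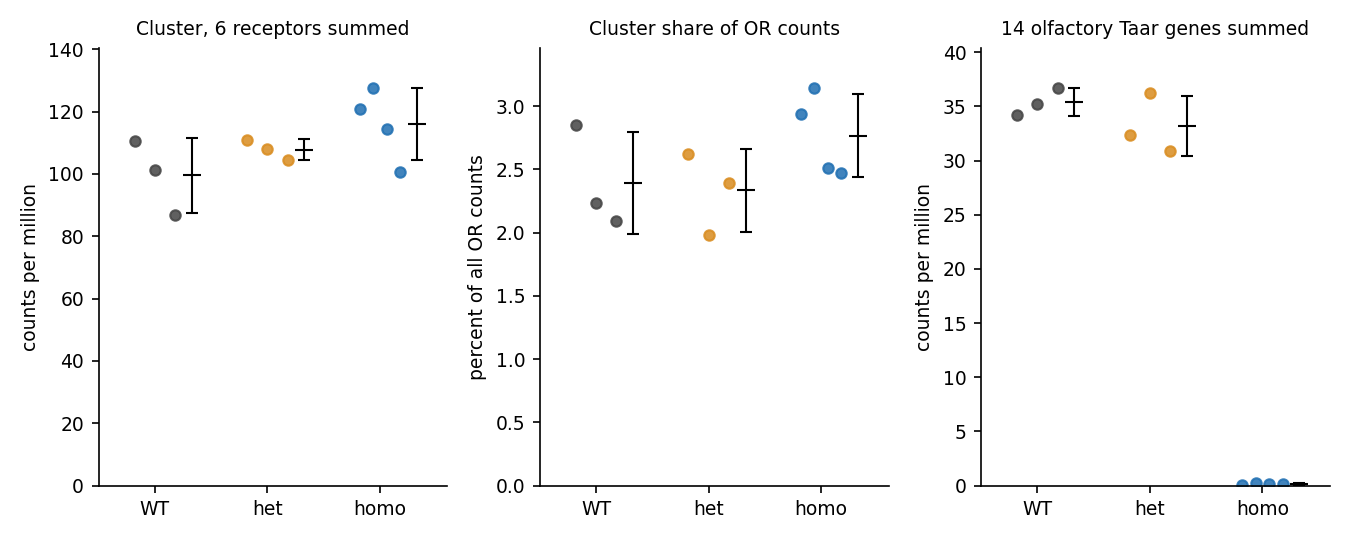
The summed cluster in CPM, its percent of all OR counts, and the summed 14 olfactory Taar genes in CPM, in every library by genotype, with axes from 0. Points are libraries and the dash and bar are mean and SD (n = 3, 3 and 4). The 6 summed receptors overlap between genotypes on both scales (the share of the 5 without Olfr1507, not drawn, does not), and the Taar total is near 0 in all 4 homo libraries.

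The spread between libraries differed among the receptors, and it is given here beside the spread from read counting, with no test. Over the 10 libraries the coefficient of variation was 14.5% for Olfr1507, where counting gives 2.38%. It was 22.9% for Olfr1508 (counting 6.06%), 22.9% for Olfr1511 (8.02%), 20.0% for Olfr1512 (13.3%), 13.1% for Olfr1510 (9.77%) and 9.47% for Olfr1509 (6.17%). The counting value is computed from the mean count and covers read sampling only. Molecular identifiers, which would mark independent molecules, were not mentioned in the sources used here.

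Members did not share 1 pattern over the libraries. Of 19 relations tested across the 10 libraries on log2(CPM + 1) or log2 totals (15 pairs of members, and Olfr1507 with the OR total, mature OSN, ventral zone and supporting cell totals), 0 passed after adjustment by permutation test. The closest pair was Olfr1510 and Olfr1512 (Pearson r = 0.79, permutation p = 0.0067, adjusted 0.127; Spearman rho = 0.79, permutation p = 0.0084, adjusted 0.159; r = 0.55 without the 2 libraries farthest from the median of Olfr1510; r = 0.89 after genotype means were removed). Olfr1507 and Olfr1508 gave r = 0.62 (permutation p = 0.0652, adjusted 0.382) and rho = 0.43 (permutation p = 0.217, adjusted 0.404), with r = 0.52 after genotype means were removed. Without the 2 libraries farthest from the median of Olfr1507, r was -0.27. Leaving out the extremes of 1 gene narrows its range, so this value cannot show what the relation rested on. Olfr1507 and Olfr1511 gave r = -0.59 (permutation p = 0.0664, adjusted 0.382; rho = -0.68, permutation p = 0.0356, adjusted 0.338; r = -0.45 without the 2 libraries farthest from the median of Olfr1507; r = -0.82 after genotype means were removed).

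The genes whose pattern over the 10 libraries was most like that of Olfr1507 were not ORs. By Pearson's r on log2(CPM + 1) they were 4930405L22Rik (0.99), Tnn (0.97), Tor3a (0.95), Cemip (0.94) and Angptl2 (0.93), of 17196 genes compared. Tnn encodes the matrix protein tenascin-W and Cemip a hyaluronan-degrading protein. All were given by a rule that takes the highest of many values, and 4930405L22Rik was near the lower limit of detection, with a mean of 0.364 CPM. Among the other members, Olfr1508 ranked 666 in likeness to Olfr1507.

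Genes beside the cluster did not pass the test either. The nearest OR, Olfr1513, which shares windows with Olfr1512, had edgeR log2 fold changes of 0.16 ± 0.28 for homo against WT and 0.54 ± 0.29 for het against WT (adjusted p = 1.00 for both). Of the genes in the table other than ORs within 500 kb, 18 lay on the Olfr1512 side and none on the Olfr1507 side. Sall2, a zinc-finger factor gene 42.6 kb from the cluster, was the nearest, with a log2 fold change of 0.06 ± 0.14 for homo against WT. The next were Mettl3, a subunit of the RNA methyltransferase that makes N6-methyladenosine, at 0.01 ± 0.09 on the same scale, and Tox4 and Rab2b at -0.05 and -0.13. In all, 14 of the 18 passed the filter and edgeR called 0 of them in each contrast, with 0 at an unadjusted p under 0.05. The smallest p belonged to Arhgef40 in both contrasts with homo (log2 0.21 ± 0.12 against WT and against het) and to the low-count gene Tmem253 for het against WT (log2 -0.74 ± 0.58).

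**Figure D5:**
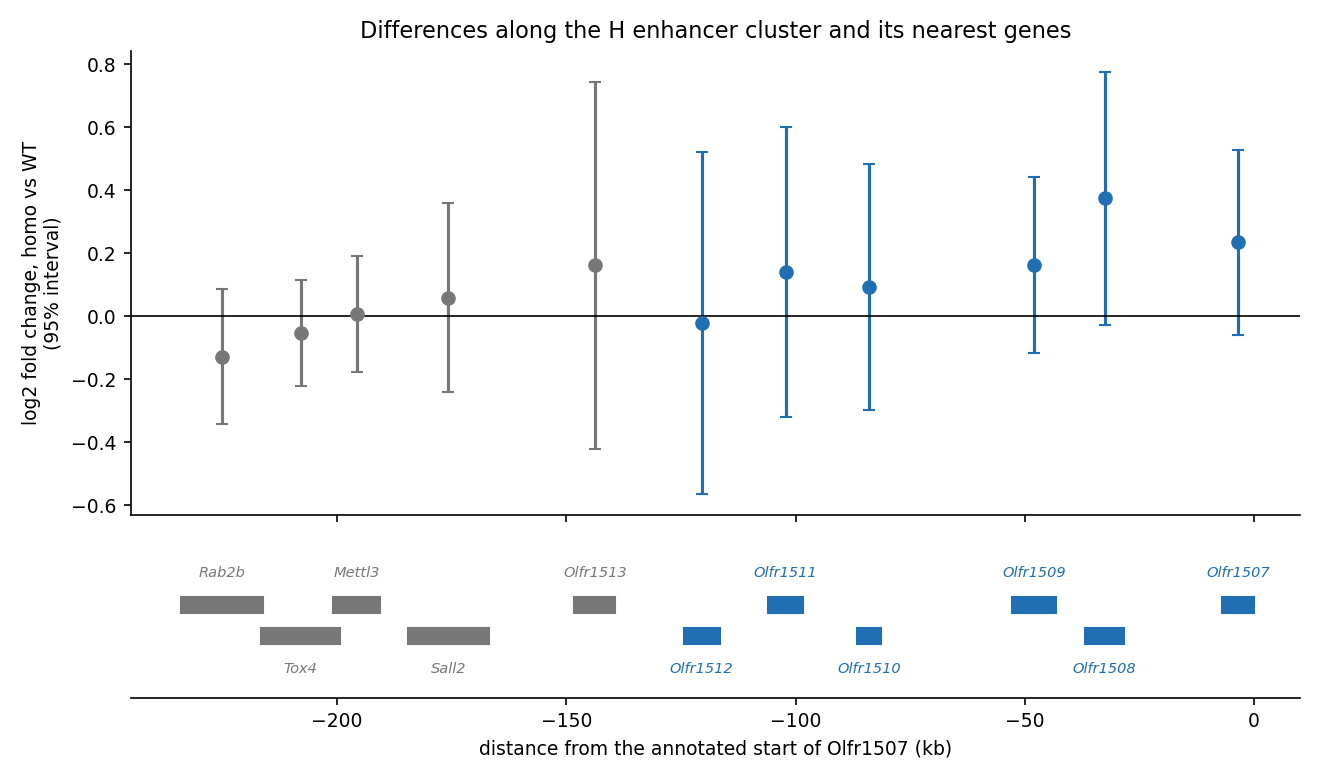
Log2 fold change of homo against WT with 95% intervals (top) and gene spans (bottom) by distance in kb from the annotated start of Olfr1507. Members are blue, and Olfr1513 and the 4 nearest other genes grey. Every interval includes 0, and members next to Olfr1507 and those far from it overlap in their intervals.

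The other ORs of chromosome 14 were not called either, though their medians differed from those of the cluster. Of 33 outside the cluster, all tested, edgeR called 0 in each contrast. At an unadjusted p under 0.05, 3 passed in homo against WT, 0 in het against WT and 1 between homo and het. Their median log2 fold changes were 0.07, 0.26 and -0.19 in the same order, beside 0.15, 0.07 and 0.10 for the cluster members. The smallest p was that of Olfr726 in both contrasts with WT (log2 0.38 ± 0.15 in homo and 0.34 ± 0.16 in het), and that of Olfr724 for homo against het (log2 -0.52 ± 0.23). Over all 1043 OR genes tested, edgeR called 0 in each contrast, with 33, 48 and 60 at an unadjusted p under 0.05. Those with the smallest p were Olfr225 (log2 1.42 ± 0.41), Olfr1275 (log2 0.88 ± 0.26) and Olfr1501 (log2 -0.73 ± 0.21), all with an adjusted p of 1.00. Olfr578, an OR outside the cluster that the study also followed by in situ hybridization, was at 8.52 ± 1.51 CPM in WT (SD, n = 3), 9.52 ± 1.58 in het (n = 3) and 9.89 ± 1.49 in homo (n = 4), with an edgeR log2 fold change of 0.22 ± 0.17 for homo against WT.

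Genes that the choice of these receptors depends on did not pass it either. The list held Lhx2, Ldb1 and the Ebf genes, which encode proteins of the OR enhancers, with Emx2, the demethylase gene Kdm1a, the feedback genes Adcy3 and Atf5, the nuclear envelope gene Lbr and the receptor-transport genes Rtp1 and Rtp2. Of the 13, edgeR called 0 in each contrast and 0 passed an unadjusted p under 0.05, with median log2 fold changes of -0.04 in homo and 0.01 in het libraries relative to WT, and of -0.02 in homo relative to het libraries. The smallest p were those of Lbr in both contrasts with homo (log2 -0.16 ± 0.10 against WT and -0.18 ± 0.10 against het) and of Ebf2 for het against WT (log2 0.15 ± 0.09).

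Olfr1507 neurons lie in the ventral part of the epithelium, so zone genes were read beside it. The 4 ventral genes (Ncam2, Nfia, Nfib and Nfix) summed to 430 to 493 CPM in WT, 437 to 469 in het and 440 to 474 in homo libraries, and the 2 dorsal genes (Nqo1 and Acsm4) to 587 to 750, 660 to 774 and 640 to 780 CPM. None of the 6 was called by edgeR in any contrast or passed an unadjusted p under 0.05. Those with the smallest p were Nfia (log2 0.09) and Nqo1 (-0.13) between homo and WT, Nfix (-0.19) and Acsm4 (0.09) between het and WT, and Ncam2 (-0.12) and Nqo1 (-0.07) between homo and het. None of the 8 mature OSN, 4 immature OSN, 5 progenitor or 4 supporting cell markers was called in any contrast by edgeR. At an unadjusted p under 0.05, 1 passed, the proliferation gene Top2a for het against WT (log2 0.18 ± 0.08). Between homo and WT the gene with the smallest p was Gng13 (log2 -0.32) among mature OSN markers, Gng8 (-0.13) among immature OSN, Top2a (0.14) among progenitor and Cyp1a2 (0.12) among supporting cell markers. Between het and WT these were Omp (-0.12), Gng8 (-0.15), Top2a and Cyp2g1 (0.15), and between homo and het Stoml3 (-0.11), Crmp1 (0.06), Mki67 (0.05) and Ermn (-0.15).

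Promoter windows gave little to compare. RefSeq windows of 300 bases (GRCm38.p6) were matched for 4 of 6 members, not for Olfr1507 and Olfr1512, and only that of Olfr1508 started within 34 bases of the start annotated in GENCODE, the others being 3446 to 7403 bases away. TAATTA, a homeodomain core that can be read on either strand, occurred in the window of Olfr1510 and not in those of Olfr1508, Olfr1509 and Olfr1511, beside 18.6% of 948 OR windows and 5.29% of all 32851 windows. CCCNNGGG, a palindrome of the core bound by Olf/Ebf factors, searched on both strands, occurred in none of the 4, beside 3.06% of OR windows and 13.7% of all. These motifs cannot overlap each other, and a match here is a description of the window.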

How the data were processed

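Raw counts per gene were deposited for 10 MOE libraries. Per the labels and the study's methods, the authors trimmed reads with Trimmomatic 0.36, aligned them to mm10 with HISAT2 2.1.0 and counted them with featureCounts of Subread 1.6.2. Annotation, strand setting and treatment of multiple alignments were not given in the sources used here. A deposited table of normalized counts, which differed from the raw counts by a constant factor in each library, was not used.

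Tests were run in edgeR 4.0.16 under R 4.3.3, with filterByExpr (minimum count 10, minimum total count 15), TMM, and a robust quasi-likelihood fit of genotype on all 10 libraries, with two-sided tests adjusted by Benjamini-Hochberg over 17197 genes, and a call at an adjusted p under 0.05. CPM are counts scaled to the library total. Alternatives included DESeq2 1.42.0, other scalings, other filters, a replicate block, and sex as a covariate. Correlations used 100000 permutations. Positions and lengths were taken from GENCODE M21 on mm10. Coding length came from its transcripts, since no RefSeq proteins were used here.

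Groups and replicate numbers came from the sample titles. Deviations from the group means of same-numbered WT and het libraries correlated at 0.35 to 0.44, so the numbers pair WT with het. Same-numbered homo libraries correlated with WT or het at -0.16 to 0.24 and were not paired, although the block used as an alternative also groups them by number. Differently numbered pairs with a homo library ran from -0.49 (het-3 and homo-2) to 0.36 (WT-3 and homo-4), and het-3 and homo-4 gave 0.30. Homo libraries may thus share deviations with WT and het under other numbers, which was not tested. Members and gene lists were chosen with earlier results of these data known. Named are the members, Olfr578, the gene with the smallest p in each list, the 5 genes most like Olfr1507, the neighbours and the Taar total.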

Additional observations from a re-analysis of the deposited data

Results flagged for a closer look

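In the group of 4 homo libraries, 12 values (each receptor, the totals and the pair sums) were checked for a library that lay apart from the other 3. The check flags about 1 in 20 groups by chance, and it flagged 2 values. Olfr1508 was at 17.9 CPM in homo-2, while the other homo libraries were at 10.3 to 10.7 CPM. Homo-2 was also the library with the most Olfr1507, at 88.5 CPM. Olfr1512 was at 3.05 CPM in homo-3, and the other homo libraries at 1.99 to 2.17 CPM.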

How the results depend on the processing

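Under every alternative run, 0 of 6 receptors were called in any contrast, and the smallest adjusted p of a member was 0.669. With library size set to the OR reads, the median of all genes moved by -0.15 (het against WT) and 0.13 (homo against het) on the log2 scale. This setting turned the log2 differences for het against WT of Olfr1507 (-0.048), Olfr1509 (-0.11) and Olfr1512 (-0.16), and for homo against het of Olfr1511 (0.031) and Olfr1512 (0.11).

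The replicate block (paired numbers) changed no member's call. It raised the genes called from 12 to 19 for homo against WT, from 13 to 24 for homo against het and from 12 to 22 across genotypes. A block within WT and het only, added after seeing the data, called 3 genes for het against WT. With it, 1112 of 16877 genes passed an unadjusted p under 0.05, against 330 of 17197 in the main fit. Of the 6 members, 0 passed in either fit. Homo-4, the only library with its number, has no weight in the genotype contrasts of the block on all libraries. That block also groups homo libraries by number, which the deviations do not bear out as a pairing. Under it, Olfr1507 was 0.35 ± 0.09 (edgeR, adjusted p = 0.669) and Olfr1508 0.44 ± 0.17 (edgeR, adjusted p = 0.903) for homo against WT. These 2 receptors passed an unadjusted p under 0.05, among 878 of 17197 genes that did so with the block and 414 without it. Olfr1512 turned to 0.020 for homo against WT with the block and to -0.0017 for het against WT with the block in WT and het only.

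Leaving out 1 library at a time turned some log2 differences. For homo against WT, Olfr1507 kept its direction with 0.083 (without WT-3) to 0.38 (without WT-1) and Olfr1508 with 0.13 (without homo-2) to 0.48 (without WT-2), while Olfr1511 ranged from -0.0041 (without WT-2) to 0.40 and Olfr1512 from -0.19 to 0.039. For het against WT, Olfr1507 ranged from -0.055 (without WT-3) to 0.25, Olfr1509 from -0.062 to 0.094, Olfr1510 from -0.25 to 0.054 and Olfr1512 from -0.22 to 0.23. For homo against het, Olfr1508 ranged from -0.17 (without homo-2) to 0.17, Olfr1511 from -0.25 to 0.097 and Olfr1512 from -0.25 to 0.20. The summed cluster in homo stayed between 109% and 123% of WT.

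Sex as a covariate, added after seeing the data, turned no member's difference. Of 348 single values under alternatives, 324 kept their direction and 24 turned. None of these differences was called in any setting, and the cause was not tested. Levels per kb were higher per coding length than per exon length for all 6 members by construction, because the coding regions are shorter than the summed exons. The depth limits Olfr1512 and Olfr1510 most, at 41 to 134 counts per library.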
